A study of Mus musculus with 6 samples.

Results

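Bile acid synthesis in the liver was followed through 10 genes, namely Cyp7a1, Cyp7b1, Cyp8b1, Cyp27a1, Cyp39a1, Hsd3b7, Akr1d1 and Baat, which encode enzymes, and Nr0b2 and Nr1h4, which encode nuclear receptors. Members were chosen by name, and every probe set that the platform annotation gives to exactly one of these symbols was taken. These are 10 of 18194 genes with such a probe set, and 16 of the 45101 probe sets of the array. Of these, 14 were bright enough to be tested, and each of the 10 genes had at least 1 of them. C57BL/6 mice that were 8 weeks old at the start ate either chow (Labdiet 5008) or a ketogenic diet (F3666 of Bio-Serv), made up mostly of fat with hardly any carbohydrate, for 6 weeks. Livers were taken in the morning from mice with free access to food, and total RNA was hybridised to 3 one-colour arrays per diet. The sources used here do not give the sex of the mice. The design text mentions 2 to 3 animals per group without saying whether mice were pooled on an array, so p-values reflect the spread between these arrays, part of which may be technical.

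Hepatocytes convert cholesterol into bile acids by a classical route, which starts with Cyp7a1, and an alternative route, which starts with side chain oxidation by Cyp27a1 and continues with Cyp7b1. Hsd3b7 and Akr1d1 then rework the steroid ring on both routes, Cyp8b1 directs the product towards cholic acid, and Baat joins the finished acid to taurine or glycine. Bile acids limit their own synthesis through the receptor FXR, encoded by Nr1h4, which induces the repressor SHP, encoded by Nr0b2.

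On the ketogenic diet the transcript of Cyp7b1 fell 3.25-fold on its brightest probe set, and the other members did not pass the test. Cyp8b1, Cyp27a1 and Akr1d1 had lower signals on all ketogenic than on all chow arrays, and Cyp39a1 had a higher one, without reaching the threshold. For Cyp7a1, Hsd3b7, Baat, Nr0b2 and Nr1h4 the diets overlapped. In limma's test with Benjamini-Hochberg adjustment, 1 of 10 genes was past the threshold of 0.05, each gene being read on its brightest probe set. Among all 22515 probe sets tested 4.64% were past it, 4.08% higher and 0.564% lower on the ketogenic diet. At an unadjusted p under 0.05, 5 of the 10 genes differed, against 20% of all probe sets tested. The diets did not overlap for 5 genes, 4 of them lower and 1 higher. Over all probe sets, 26.7% did not overlap, 5.06% being lower and 21.6% higher. The median log2 change (ketogenic minus chow) was -0.29 over the 10 genes and 0.221 over all probe sets tested, and 8 of the 10 genes had a negative change.

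The level of the arrays bears on these values. The trimmed mean signal ranged from 39.9 to 53.5 on chow and from 45.8 to 61 on ketogenic arrays, and was lowest on array 3 of each diet. The values were used as deposited. As deposited 87.8% of all calls were higher on the ketogenic diet, against 77.4% once the arrays shared a median, 66.2% once they shared a trimmed mean, 64.5% after quantile normalization and 97.5% after scaling to the hybridization controls, which are spiked-in bacterial and phage transcripts. Under these scalings the median change of all probe sets was 0.109, 0.008, -0.013 and 0.583. The geometric mean of the hybridization controls was 642, 650 and 633 on chow and 509, 511 and 478 on ketogenic arrays. The diets thus did not overlap in it (two-sided exact permutation p = 0.1). For actin, the signal at the 3' end exceeded that at the 5' end, a gap that widens as RNA degrades, by a factor of 2 to 2.2 on chow and of 1.49 to 1.63 on the ketogenic diet. A two-sided exact permutation test gave p = 0.1 for it, and 3 against 3 arrays allow no smaller value. The same ratio for Gapdh averaged 0.839 on chow and 0.793 on ketogenic arrays (exact permutation p = 0.9). That of pyruvate carboxylase was 3.81 to 11.1 on chow and 3.39 to 4.28 on ketogenic arrays (exact permutation p = 0.3). The part of these ratios and of the level of the hybridization controls in the results was not tested.

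**Figure D1:**
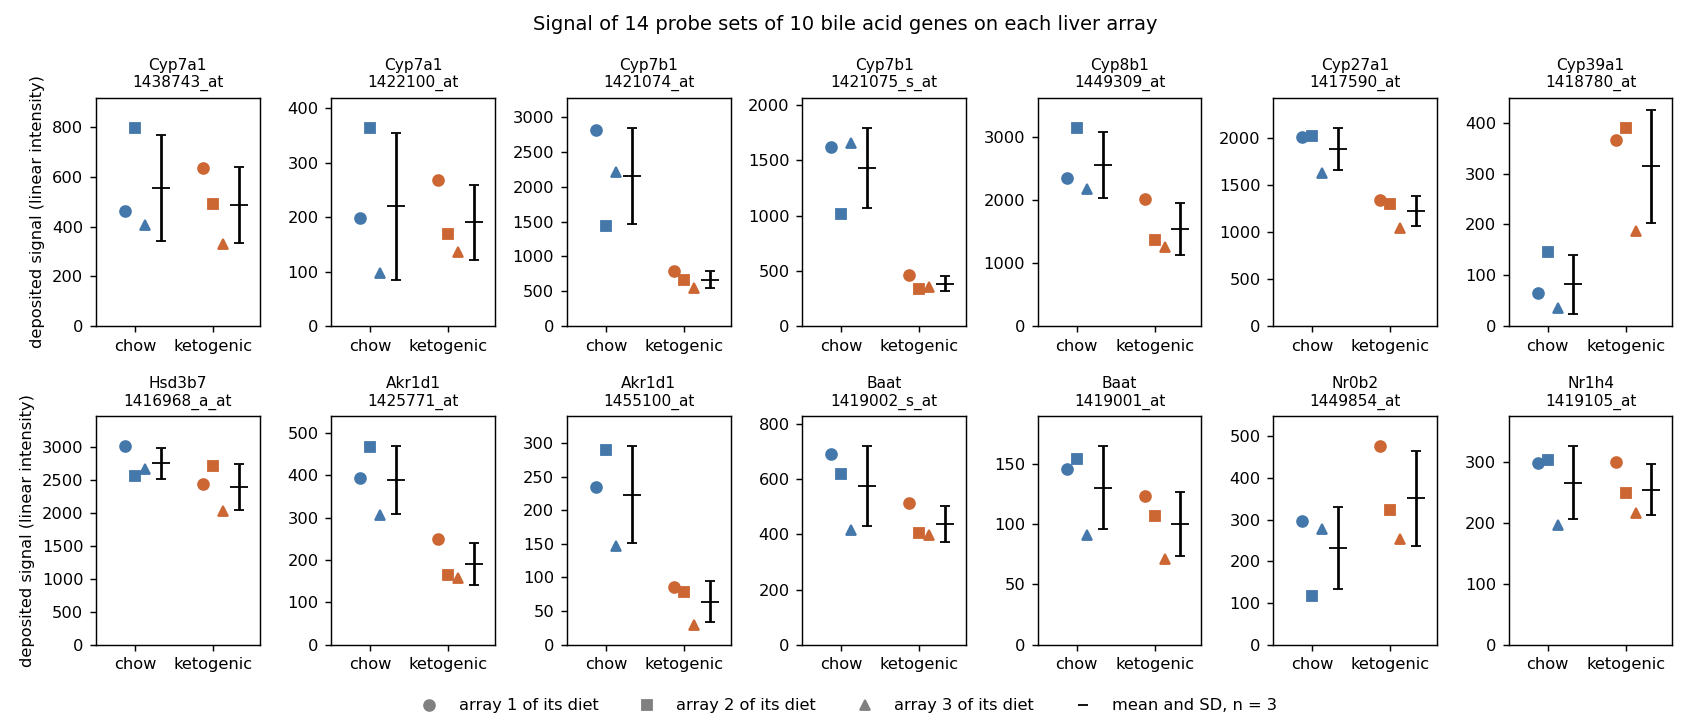
Deposited signal (linear intensity, y axis from 0) of each tested probe set on the 3 chow and the 3 ketogenic arrays, with symbols for array 1, 2 and 3 of each diet and a bar for the mean and SD. Both Cyp7b1 probe sets lie lower on all 3 ketogenic arrays, while the Cyp7a1, Baat and Nr1h4 points of both diets overlap.

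Cyp7a1, the rate-limiting enzyme of the classical route, had a signal of 461.6, 797.3 and 404.7 on chow arrays 1, 2 and 3 and of 636.2, 490.1 and 331.6 on ketogenic arrays 1, 2 and 3 (probe set 1438743_at). The highest signal was on a chow array and the lowest was on a ketogenic array. In between, the other ketogenic values (636.2 and 490.1) lay above the other chow values (461.6 and 404.7). Its log2 change was -0.18 ± 0.36 (SE), with a 95% confidence interval from -0.99 to 0.63 and adjusted p = 0.816. A second probe set, 1422100_at, gave 198, 363.9 and 97.5 on chow and 268, 168.4 and 135.6 on ketogenic arrays, and a log2 change of -0.07 ± 0.48 (SE, adjusted p = 0.952). The intervals of both probe sets take in changes in either direction, so a moderate change of Cyp7a1 could not be detected with these arrays. The sign of the change turned when the arrays were scaled to the hybridization controls (0.19 and 0.3), without chow array 2 (0.12 and 0.4) and without ketogenic array 3 (0.08 and 0.15). Both probe sets were highest on chow array 2 among the chow arrays and lowest on array 3 within each diet.

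Cyp7a1 transcripts are known to follow the time of day, and genes of the clock were therefore read on the same arrays. In limma 0 of the 9 clock genes tested passed the threshold, and 1 had an unadjusted p under 0.05. Over all probe sets tested these shares were 4.64% and 20%. The 3 with the smallest adjusted p were Clock (log2 change 0.97, adjusted p = 0.113), Per1 (1.42, adjusted p = 0.347) and Nr1d2 (0.43, adjusted p = 0.549). Other probe sets of Clock gave log2 changes from -0.21 to 0.26, and the other probe set of Nr1d2 gave 1.17. Dbp, a strongly cycling factor named after its values were seen, had signals of 343.4, 164.9 and 43.6 on chow and 252, 256.5 and 59.7 on ketogenic arrays. It was thus lowest on array 3 of each diet, the arrays on which both Cyp7a1 probe sets and the array level were lowest too. This was not particular to Cyp7a1. Cyp8b1, Cyp27a1, Cyp39a1, Akr1d1, Baat and Nr1h4 were also lowest on these arrays, on each of their tested probe sets. The part of the time of day in the Cyp7a1 values was not tested.

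Cyp7b1, the oxysterol hydroxylase of the alternative route, had signals of 2824.4, 1441.6 and 2212.8 on chow and of 792.1, 654.9 and 546.3 on ketogenic arrays (1421074_at). The lowest chow array still exceeded the highest ketogenic array. The mean was 2160 ± 693 on chow and 664.4 ± 123 (SD, n = 3) on the ketogenic diet, and the log2 change was -1.66 ± 0.31 (SE), with adjusted p = 0.0239. A second probe set that can bind several transcripts, 1421075_s_at, fell from 1621.9, 1011.5 and 1660.9 on chow to 460.2, 338.2 and 353.9 on ketogenic arrays, a log2 change of -1.88 ± 0.29 (SE, adjusted p = 0.0124). Both probe sets therefore placed chow array 2 lowest among the chow arrays. Another one, 1446995_at, stayed under the background of 10.7 on all 6 arrays and was not tested. Relative to the median of all probe sets, the log2 changes of the tested ones were -1.88 and -2.1. Over the 4 other scalings the change of the brightest probe set lay between -1.88 and -1.3 and remained past the threshold. Its call was lost without chow array 1 or 3 (adjusted p = 0.0514 and 0.0557), without ketogenic array 2 or 3 (0.0694 and 0.087) and with dim probe sets added to the test (0.128), in a range from 0.000212 over 18 alternatives. The call of the second probe set was lost without ketogenic array 3 (0.0561) and with dim probe sets added (0.0842), in a range from 3.7e-05.

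In bulk liver RNA, fewer cells of a type and less RNA per cell cannot be told apart. Of 7 hepatocyte markers tested, such as albumin, 0 passed limma's test (0 also at an unadjusted p under 0.05), and their summed signal was 46778 to 49091 on chow and 40576 to 45684 on ketogenic arrays. Of 10 macrophage markers 8 rose, with sums of 1227 to 1531 on chow and 4166 to 6382 on the ketogenic diet, and of 7 markers of stellate cells 5 rose, with sums of 1017 to 1268 and 2904 to 4522. For endothelial cells 1 of 6 rose (429 to 718 and 794 to 1071), for neutrophils 2 of 3 (36 to 64 and 82 to 110), and for cholangiocytes and lymphocytes 0 of 3 each (54 to 84 and 95 to 128, 54 to 75 and 81 to 99). For pancreatic acinar cells 0 of 2 passed (190 to 303 and 114 to 157). Cd3d of T cells, Camp of neutrophils and Cpa1 of acinar cells were under the background on all 6 arrays. Among hepatocyte zones, 3 of 6 periportal markers fell (16115 to 17581 on chow and 4485 to 8594 on the ketogenic diet) and 0 of 8 pericentral ones passed (14018 to 17552 and 11760 to 16112). At an unadjusted p under 0.05 in limma, 9 macrophage, 7 stellate cell, 4 endothelial, 2 neutrophil and 5 periportal markers differed. Of the other lists, 1 acinar and 1 pericentral marker differed, and 0 of the cholangiocytes and lymphocytes. Over all probe sets tested 20% had such a p, and 4.08% rose and 0.564% fell past the adjusted threshold. The part of cell makeup or zone in the members' values was not tested.

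Cyp7b1 is known to be more abundant in male than in female mouse liver, and other male-biased genes were read beside it. Of 6 tested in limma, 5 fell past the threshold, against 0.564% of all probe sets tested. At an unadjusted p under 0.05, all 6 differed, against 20% of all probe sets. The summed signal of the 6 was 8034 to 10171 on chow and 2846 to 3754 on ketogenic arrays. Hsd3b5, a steroid dehydrogenase, fell from 1128.4, 543.7 and 1178.1 on chow to 0.8, 11.7 and 1.2 on ketogenic arrays, with adjusted p = 0.00195. On chow it was lowest on array 2, as Cyp7b1 was. C8b, a complement subunit, fell by 1.98 (log2, adjusted p = 0.00736). The part of male-biased expression in the Cyp7b1 value was not tested.

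The genes whose log2 signals followed those of Cyp7b1 most closely over the 6 arrays were Nlrp6, Lifr, Cyp4f14, Adcy9 and Marf1, with Pearson correlations of 0.9931, 0.9908, 0.9905, 0.99 and 0.989. These 6 points fall into the 2 diets and share the array level, so the values only describe likeness. Lifr, a cytokine receptor, fell by 1.76 (log2, adjusted p = 0.0243), with signals of 964, 419.2 and 730.9 on chow and 204.5, 213.1 and 175.7 on the ketogenic diet. Cyp4f14, a fatty acid hydroxylase, fell by 1.42 (adjusted p = 0.0218). Nlrp6, Adcy9 and Marf1 had log2 changes of -0.63, -0.52 and -0.59 and did not pass.

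Cyp27a1, the mitochondrial enzyme that opens the alternative route, had signals of 2002.4, 2016.9 and 1622.2 on chow and of 1333, 1293.1 and 1041.4 on ketogenic arrays (1417590_at). The diets did not overlap, and the gene varied little within a diet, with an SD of 11.9% of the mean on chow and 12.9% on the ketogenic diet. Its log2 change was -0.62 ± 0.25 (SE), with a 95% confidence interval from -1.19 to -0.06 and adjusted p = 0.208. It passed the threshold with a common trimmed mean (-0.84, adjusted p = 0.0345) and with a trended robust prior (0.0464). A second probe set, 1457665_x_at, was under the background on all 6 arrays.

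Cyp39a1, a hydroxylase that acts on an oxysterol made mainly in the brain, had signals of 64.5, 145.6 and 35.2 on chow and of 365.8, 390.2 and 186.7 on ketogenic arrays (1418780_at). Every ketogenic array lay above every chow array, and the chow arrays differed among themselves by a factor of 4.14. Its mean was 81.77 ± 57.2 on chow and 314.2 ± 111 (SD, n = 3) on the ketogenic diet, and the log2 change was 2.11 ± 0.52 (SE), with adjusted p = 0.0566. It was the member with the largest change in size on a brightest probe set, and it missed the threshold in the test as designed. The call was made without chow array 2, the highest chow array (log2 change 2.65, adjusted p = 0.0142), and after scaling to the hybridization controls (0.0171). With 1 probe set per gene adjusted p was 0.0376, and over all 18 alternatives it ranged from 0.000508 to 0.241, with 7 past the threshold.

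A factor common to a whole array cancels in the log2 difference of 2 members on it. Quantile normalization is not of that kind, and the log2 changes after it were 1.86 for Cyp39a1 and -1.72 for Cyp7b1. The log2 difference of Cyp39a1 and Cyp7b1, set to a mean of 0 on chow, was -0.54, 1.6 and -1.06 on the chow arrays and 3.8, 4.16 and 3.36 on the ketogenic arrays. The 2 hydroxylases therefore moved apart by 3.77 on the log2 scale. Cyp39a1 was higher and Cyp7b1 lower on every ketogenic array, so their difference could not overlap between the diets. The permutation p of this pair was thereby fixed at the smallest possible value and adds no support. The difference of Cyp7b1 and Cyp7a1 was lower by 1.49, at -1.66, -1.55 and -1.25 on ketogenic arrays against 0.64, -1.12 and 0.48 on chow. That of Cyp8b1 and Cyp7a1 changed by -0.56, at -0.58, -0.78 and -0.33 on ketogenic arrays against 0.1, -0.27 and 0.17 on chow. In both of these pairs chow array 2 came close to ketogenic array 3. Each of the 3 pairs, chosen after the values were seen, had a two-sided exact permutation p = 0.1, the smallest possible, and 0.1 after Benjamini-Hochberg adjustment.

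**Figure D2:**
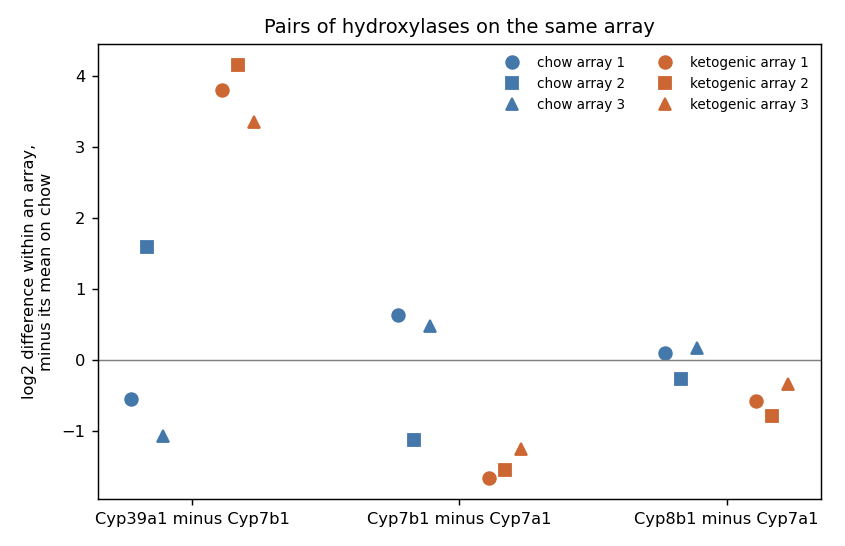
Log2 signal of the first gene minus that of the second on the same array (y axis), with the chow mean of each pair set to 0, for 3 chow and 3 ketogenic arrays. The Cyp39a1 and Cyp7b1 difference lies between 3.36 and 4.16 on ketogenic arrays and reaches at most 1.6 on chow.

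Cyp8b1, the hydroxylase whose activity sets the proportion of cholic acid, had signals of 2354.8, 3151.6 and 2173.2 on chow and of 2021.6, 1361.8 and 1259.8 on ketogenic arrays (1449309_at). Ketogenic array 1 came close to the lowest chow array without overlap. The mean was 2560 ± 520 on chow and 1548 ± 414 (SD, n = 3) on the ketogenic diet, and the log2 change was -0.74 ± 0.29 (SE), with adjusted p = 0.2. It was negative under all 18 alternatives, from -0.95 to -0.38, and passed the threshold under 1 of them, a trended robust prior (0.0351). Among the chow arrays Cyp8b1 was highest on array 2, as Cyp7a1, Cyp39a1, Akr1d1 and, by small margins, Cyp27a1 and Nr1h4 were. Cyp7b1, Hsd3b7 and Nr0b2 were lowest there, and Baat lay in between on its brightest probe set.

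Akr1d1, the reductase that gives bile acids their bent steroid ring, had signals of 393.8, 466 and 305.8 on chow and of 248.3, 164.7 and 157.4 on ketogenic arrays (1425771_at). The dimmer probe set 1455100_at gave 234.1, 289.8 and 146.6 on chow and 85.2, 77.6 and 28.4 on ketogenic arrays. Neither overlapped between the diets. The log2 changes were -1.04 ± 0.29 and -1.91 ± 0.46 (SE), with adjusted p = 0.0873 and 0.0524. With the mean of both probe sets the change was -1.48 with adjusted p = 0.0303. The first probe set passed under 5 of 18 alternatives, that mean of both being counted among them, and the second under 7 of 16. Both passed with a common trimmed mean (0.0404 and 0.0355) and with quantile normalization (0.0419 and 0.0365).

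Stretches of 250 bases before the RefSeq start were on hand for 6 of the 10 genes (assembly GRCm38.p6). None was on hand for Cyp7a1, Cyp7b1, Cyp39a1 and Baat, so these were not searched. The stretches of Cyp8b1, Akr1d1 and Cyp27a1 are shown because these 3 had lower signals on every ketogenic array, as Cyp7b1 also did. They are written 5′ to 3′ along the gene, and capitals mark matches to motifs searched on both strands. The stretch of Cyp8b1 lies on the minus strand at chr9:121916306-121916555, that of Akr1d1 on the plus strand at chr6:37529923-37530172 and that of Cyp27a1 on the plus strand at chr1:74713285-74713534.
Cyp8b1: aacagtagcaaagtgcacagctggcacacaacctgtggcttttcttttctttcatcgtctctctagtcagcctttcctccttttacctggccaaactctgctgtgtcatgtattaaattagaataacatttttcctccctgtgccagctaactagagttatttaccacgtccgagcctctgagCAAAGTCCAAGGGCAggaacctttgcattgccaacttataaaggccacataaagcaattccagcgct
Akr1d1: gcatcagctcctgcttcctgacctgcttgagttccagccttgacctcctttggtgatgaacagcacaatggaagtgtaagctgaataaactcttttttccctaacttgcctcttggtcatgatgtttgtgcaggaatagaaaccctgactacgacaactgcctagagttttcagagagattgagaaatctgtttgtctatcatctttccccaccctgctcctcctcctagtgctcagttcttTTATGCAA
Cyp27a1: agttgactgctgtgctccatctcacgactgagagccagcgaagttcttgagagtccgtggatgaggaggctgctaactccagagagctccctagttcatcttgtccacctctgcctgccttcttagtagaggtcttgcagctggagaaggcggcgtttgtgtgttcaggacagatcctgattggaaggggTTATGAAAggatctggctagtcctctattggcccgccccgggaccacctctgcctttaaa

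The capitals of Cyp8b1 join a match to the HNF4A motif CAAAGTCCA, from 67 to 59 bases before the start, and one to the LRH-1 motif CAAGGNCA, from 60 to 53 bases before it, which overlap by their shared letters. HNF4A and LRH-1 are liver transcription factors known to act on bile acid genes. The HNF4A letters occur in 0.384% of all 32851 promoters of the same length and the LRH-1 letters in 5.53%, among them also Nr0b2. The capitals of Akr1d1 (TTATGCAA) and Cyp27a1 (TTATGAAA) match TTATGNAA, a loose form of the D-box of the clock factor DBP. It allows any base at N, was present in 3.07% of promoters, and can match letters that are not a D-box. The FXR motif, AGGTCA and its inverted repeat around a single base, was in none of the 6 stretches and in 0.00609% of all. The motifs were chosen with these promoters in view, and a match describes letters only.

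Hsd3b7 is the dehydrogenase that acts after Cyp7a1 on the classical route and after Cyp7b1 on the alternative route. Its signals were 3019.4, 2573 and 2679.2 on chow and 2437.8, 2719.5 and 2032.1 on ketogenic arrays (1416968_a_at). The diets overlapped, and the chow SD of 8.46% of the mean was the smallest among the tested probe sets of the 10 genes. Its log2 change was -0.21 ± 0.25 (SE), with a 95% confidence interval from -0.77 to 0.35 and adjusted p = 0.669, and it was 0.15 when scaled to the hybridization controls.

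Baat, the conjugating enzyme, had signals of 694.3, 620.3 and 415.7 on chow and of 514.6, 405.6 and 397.3 on ketogenic arrays (1419002_s_at). The lowest chow array lay between the ketogenic arrays. The log2 change was -0.37 ± 0.28 (SE) with adjusted p = 0.507, and the dimmer probe set 1419001_at gave -0.38 ± 0.32 with adjusted p = 0.55. Both were near 0 (-0.01) when scaled to the hybridization controls.

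Nr0b2, whose product SHP represses Cyp7a1 and Cyp8b1, had signals of 296, 117.6 and 278.3 on chow and of 476, 323 and 252.5 on ketogenic arrays (1449854_at). Chow array 2 was the lowest of all 6 arrays, and ketogenic array 3 lay below 2 chow arrays. The log2 change was 0.67 ± 0.41 (SE), with a 95% confidence interval from -0.27 to 1.6 and adjusted p = 0.405. It was positive under all 18 alternatives, from 0.24 to 1.03, and past the threshold under none of them (adjusted p from 0.0944). Without chow array 2 it was 0.24.

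Nr1h4, which encodes the bile acid receptor FXR, had signals of 299.3, 303.4 and 197.2 on chow and of 300, 249.2 and 215.9 on ketogenic arrays (1419105_at). The ketogenic values lay within the chow range. Its log2 change was -0.05 ± 0.28 (SE), with a 95% confidence interval from -0.69 to 0.59 and adjusted p = 0.938. The sign turned when scaled to the hybridization controls (0.31) and without chow array 1 (0.05), chow array 2 or ketogenic array 3 (0.06 each).

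**Figure D3:**
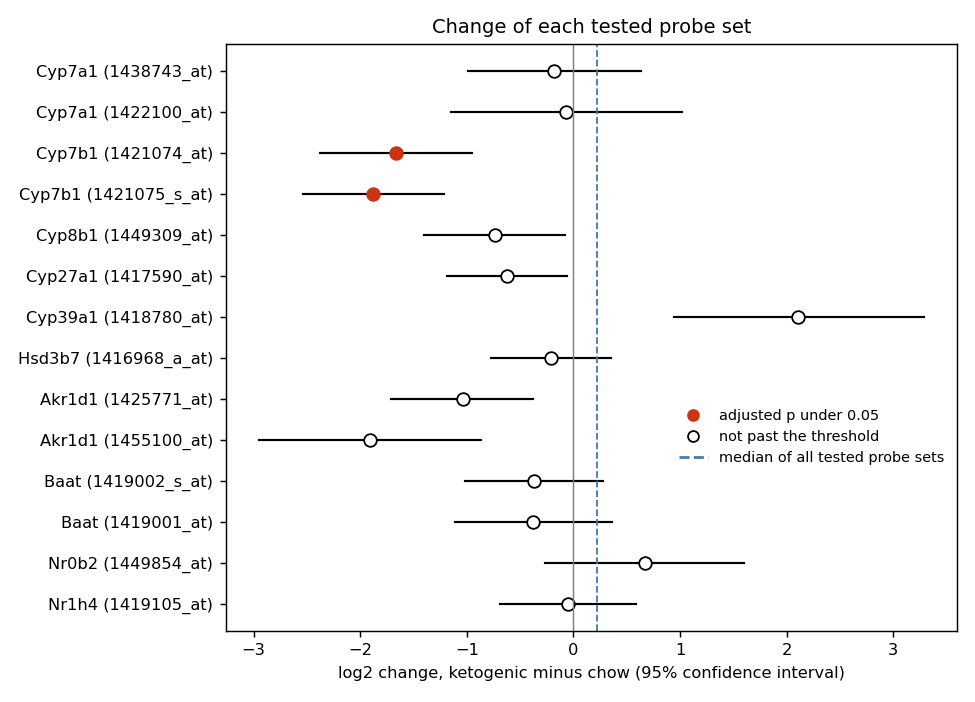
Log2 change (ketogenic minus chow, x axis) of each of the 14 tested probe sets with its 95% confidence interval, filled where adjusted p was under 0.05, beside the median of all probe sets at 0.221. Both Cyp7b1 probe sets are filled, and the Cyp39a1 interval lies above 0.

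**Figure D4:**
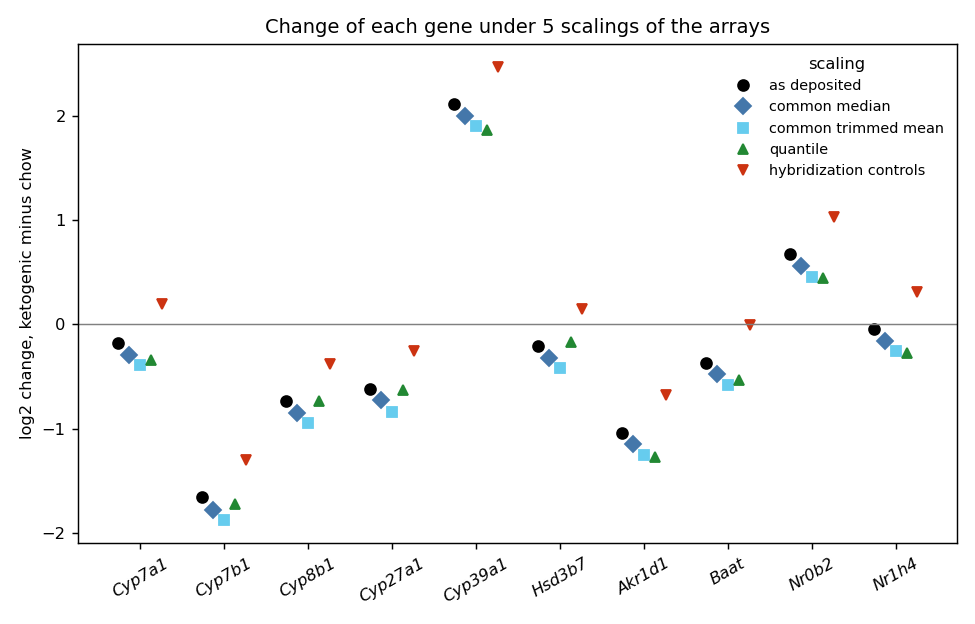
Log2 change (y axis) of the brightest probe set of each gene as deposited and under 4 other scalings of the arrays. Cyp7b1, Cyp8b1, Cyp27a1 and Akr1d1 stay below 0 and Cyp39a1 and Nr0b2 above 0 under all 5, while Cyp7a1, Hsd3b7 and Nr1h4 cross 0 with the hybridization controls.

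Genes that work beside these 10 were read from 4 lists. For comparison, 4.08% of all probe sets tested in limma rose past the threshold and 0.564% fell, and 20% had an unadjusted p under 0.05. Of the other hydroxylases that act on oxysterols or bile acids, 1 of 3 tested fell and 0 rose, with a median log2 change of -0.41 against 0.221 for all probe sets. The one was Cyp2c70, which makes the muricholic acids of mice. Its signal was 1940, 1274.5 and 2327.3 on chow and 532.7, 593.2 and 511.5 on ketogenic arrays. The diets were far apart, and the log2 change was -1.72 ± 0.29 (SE) with adjusted p = 0.0155. The call was lost without ketogenic array 1 or 3 (0.0514 and 0.0639) and with dim probe sets added (0.096). On chow Cyp2c70 was lowest on array 2, as Cyp7b1 was. Ch25h, which makes an oxysterol, was under the background on all 6 arrays.

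Of the genes of side chain shortening, activation and conjugation, 0 of 10 passed limma's test and 1 had an unadjusted p under 0.05, with a median log2 change of 0.04. For Scp2, a sterol carrier of peroxisomes and the brightest of them, the log2 change was 0.04 (adjusted p = 0.94), while its other probe sets ranged from -0.63 to -0.58. Slc27a5, the bile acid CoA ligase that acts just before Baat, was named after its values were seen. Its signals were 3269, 3039.9 and 2747.2 on chow and 2140, 1774.8 and 1395.1 on ketogenic arrays, without overlap, and its log2 change was -0.79 ± 0.26 (SE) with adjusted p = 0.136.

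Of the regulators, 0 of 14 passed limma's test and 0 had an unadjusted p under 0.05, with a median log2 change of -0.06 and 7 of them negative. For Hnf4a, the brightest, the log2 change was 0 ± 0.28 (SE, adjusted p = 0.995), and its other probe sets ranged from -0.53 to 0.46. Named after their values were seen, Fgfr4 and Klb, which together receive the intestinal signal that limits Cyp7a1, had log2 changes of -0.24 and -0.38 (adjusted p = 0.654 and 0.562), and Nr5a2, which encodes LRH-1, one of -0.26 (0.682). The other probe sets of Fgfr4 ranged from -1.01 to -0.62 and those of Nr5a2 from -0.36 to -0.16.

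Of the bile acid transporters, 2 of 10 tested rose and 1 fell in limma's test, with a median log2 change of 0.16. At an unadjusted p under 0.05, 5 of them differed, against 20% of all probe sets tested. Over all probe sets 4.08% rose and 0.564% fell past the adjusted threshold. Abcc4, an exporter of the basolateral membrane, rose from 12.2, 11.4 and 12.9 on chow to 62.5, 91.1 and 63.8 on ketogenic arrays, by 2.55 ± 0.26 (log2, SE) with adjusted p = 0.00211. Its call was kept under all 17 alternatives that tested it, up to an adjusted p of 0.0382, and its chow signals lay only just above the background of 10.7. Abcb4, the phospholipid exporter of bile, rose from 940.3, 1009.6 and 581.5 to 2036.7, 2085.8 and 1814.2, by 1.27 ± 0.29 (log2, SE) with adjusted p = 0.0429. That call did not survive the omission of any of the 6 arrays (adjusted p from 0.0564 to 0.136), with dim probe sets added (0.163) and after removal of probe sets shared by several transcripts (0.0506).

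Slco1a1, an uptake transporter that is also among the male-biased genes, fell from 1009.1, 604.8 and 804.2 to 209.7, 182.9 and 172.3, a log2 change of -2.07 ± 0.27 (SE, adjusted p = 0.00715). Its call was lost with dim probe sets added (0.0614), and its other probe set gave a log2 change of -1.41. Slc10a1, the main uptake transporter for conjugated bile acids, named after its values were seen, had signals of 3325.3, 3193.1 and 2336.6 on chow and of 1993.5, 1821.1 and 1239.1 on ketogenic arrays. The diets did not overlap, adjusted p was 0.158, and the other probe set gave a log2 change of -0.47. Slc51b, a subunit of an exporter that FXR induces, was too dim to be tested. It was listed at 2.6, 1.7 and 2.5 on chow, under the background, and at 11, 12.7 and 17.5 on ketogenic arrays, just above it. Slc51a, the other subunit, was also too dim to be tested, at 5.7 to 12.7 on chow and 4.6 to 6.1 on ketogenic arrays.

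**Figure D5:**
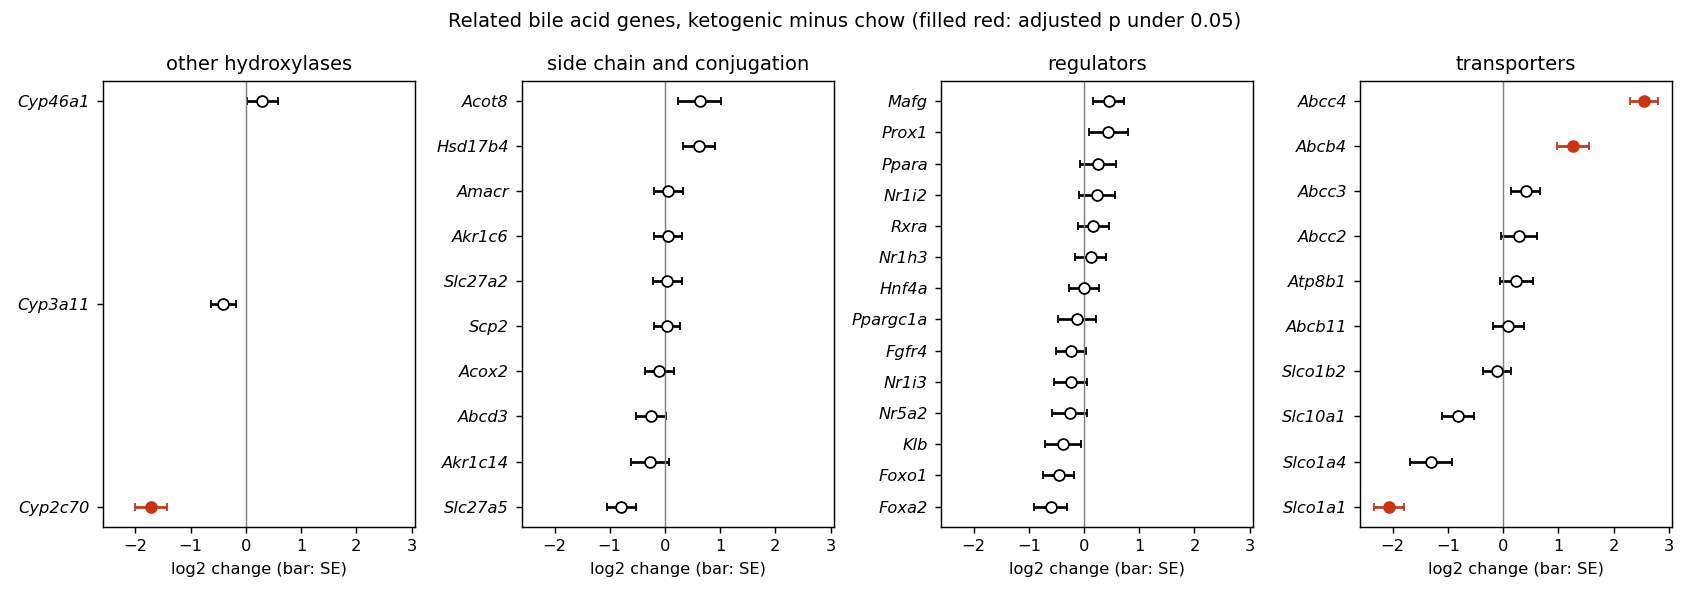
Log2 change (ketogenic minus chow, x axis, bars are SE) of the tested genes of the 4 related lists, filled red where adjusted p was under 0.05. The filled genes are Cyp2c70 and Slco1a1 below 0 and Abcc4 and Abcb4 above 0.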

How the data were processed

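Liver RNA of 3 chow and 3 ketogenic arrays was compared. The authors deposited an intensity for each probe set on a linear scale. Per the submitters' processing notes GCOS and MAS5 were used; their versions, settings and scaling target are not stated in the sources used here. The authors' scaling was kept. Values under 1.1, the 10th percentile, were set to 1.1 before log2 was taken. Of 45101 probe sets, 64 controls were left out, and those with a mean log2 signal of at least the median, 3.35 (signal 10.2), were kept, leaving 22515. The diets were tested in limma 3.58.1 (lmFit, eBayes; R 4.3.3), two-sided and without covariates. P-values were adjusted by Benjamini-Hochberg over all 22515 probe sets, with 0.05 as the threshold. Residual degrees of freedom were 4 and prior ones 4.68, and the script was tested on simulated data. The number of arrays limits the precision. The smallest change called was 0.975 (log2).

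A gene was read on its brightest kept probe set (mean log2 over the 6 arrays). The annotation gave 1 symbol to 34958 probe sets, several to 932 and none to 9211, and the symbols of 34754 probe sets matched the RefSeq table of GRCm38.p6. The array's build is not given, so no positions of genes or probe sets are printed, only those of the RefSeq promoter stretches. For the background of 10.7, the 95th percentile of 27 bacterial controls was taken on each array and averaged on the log2 scale. Replicates were numbered in order of deposition and pair no samples.

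The members and lists were chosen with earlier results of these data known. The named genes are the 10 members, up to 5 changed genes of each related list or its brightest gene, up to 3 of the clock and male-biased genes by adjusted p, and the 5 genes most correlated with the member of smallest adjusted p. Genes without a probe set of 1 symbol are not analysed here. Alternatives were 4 scalings, 2 floors, 2 filters, 2 ways to join probe sets, leaving out probe sets that can bind several transcripts, another prior, and leaving out each array.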

Additional observations from a re-analysis of the deposited data

How the results depend on the processing

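Across 18 alternatives, Cyp7b1, Cyp8b1, Cyp27a1, Akr1d1 and Baat kept a negative log2 change and Cyp39a1 and Nr0b2 a positive one wherever they were tested. The count of member genes past the threshold, 1 as reported, was 2 with 1 probe set per gene, a floor at the 25th percentile, quantile normalization or the hybridization controls, 3 with a common 2% trimmed mean, a filter at the 75th percentile or the mean of a gene's probe sets, 5 with a trended robust prior and 0 with no filter on dim probe sets. It ranged from 0 to 2 when 1 array was left out. It was 0 without chow array 1, chow array 3, ketogenic array 2 or ketogenic array 3. The count of related genes past the threshold, 4, was 2 with no filter, 7 with a trended robust prior and 2 to 4 with 1 array left out, 2 being reached without ketogenic array 1 or 3. Each of the other scalings raised this count. It was 5 with quantile normalization and 6 with a common median, a common trimmed mean or the hybridization controls. A filter at the 75th percentile also gave 6. All probe sets past the threshold numbered 1045, against 178 with no filter, 5123 with the hybridization controls, 1872 with a trended robust prior, 622 after removal of probe sets shared by several transcripts, and 310 to 1037 with 1 array left out (458, 449 and 310 without ketogenic arrays 1, 2 and 3).

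Signs turned for members that did not pass the test. With the hybridization controls the log2 change became 0.19 and 0.3 for the probe sets of Cyp7a1, 0.15 for Hsd3b7 and 0.31 for Nr1h4, and the median of the 10 genes 0.07. Without 1 array, the Cyp7a1 probe sets ranged from -0.39 to 0.12 and from -0.55 to 0.4 and Nr1h4 from -0.25 to 0.06. With quantile normalization the median of all probe sets was -0.013. The cause was not tested. No paired analysis was possible because the labels give no replicate numbers. As reported, with 3 arrays per diet, no log2 change smaller than 0.975 was called; smaller ones passed under the trended robust prior (Cyp27a1 -0.62, Cyp8b1 -0.74) and the common trimmed mean (Cyp27a1 -0.84).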
